A study of Mus musculus with 4 samples.

Results

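The genes described here encode the Wnt ligands, their Frizzled receptors, the Lrp5 and Lrp6 co-receptors, the Ror1 and Ror2 receptors and the R-spondins, measured in the mesenchyme of mouse molar tooth germs on embryonic day 13.5. They were chosen by gene symbol, which gave 37 of the 22072 symbols in the deposited tables: 19 Wnt ligands, 10 Frizzled genes, 4 R-spondins, 2 Ror genes and 2 Lrp genes. The mesenchyme was cut from frozen sections with a laser and its RNA was sequenced in 4 libraries, 1 for each combination of genotype and molar. The mutant, Bmp4f/f;Wnt1Cre, had floxed Bmp4 on each chromosome and a Cre recombinase under regulatory sequences of Wnt1, which act in the neural crest, the source of this mesenchyme. The control was Bmp4f/+, for which no Cre is named, so an effect of Cre cannot be told apart from that of losing Bmp4. All embryos were of mixed background, and each library was a pool from 3 pairs of control and mutant samples per the series' design text. The groups, with 1 library each, are the mutant lower (mandibular) molar, the mutant upper (maxillary) molar, the control lower molar and the control upper molar.

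Wnt proteins are lipid-modified secreted signals. Bound to a Frizzled together with Lrp5 or Lrp6 they stabilise beta-catenin, whereas Wnt5a acting through Ror1 or Ror2 mostly signals without beta-catenin, to cell polarity and movement. R-spondins are secreted proteins that bind Lgr4, Lgr5 or Lgr6 and keep the ubiquitin ligases Znrf3 and Rnf43 from removing Frizzleds, which raises a cell's sensitivity to Wnt. In the early tooth, Wnt signals from the dental epithelium and Bmp4 from the mesenchyme are part of an exchange between the layers on which tooth development depends.

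The libraries held between 4820000 and 5550000 approximate reads on annotated transcripts, an estimate from the deposited coverage that bounds counting error only. Bmp4 itself had 4.90 and 4.75 FPKM (fragments per kilobase, a level corrected for transcript length and for the number of mapped reads) in the mutant lower and upper molar, against 27.2 and 24.8 FPKM in the control lower and upper molar. Markers of tooth mesenchyme were all present, with the 11 listed genes summing to between 763 and 853 FPKM. Of the 16 markers of oral and dental epithelium, the layer known to make several Wnt ligands, 8 were under 1 FPKM in every library and the list summed to between 25.1 and 27.9 FPKM, with Shh at or under 0.0481 FPKM and the cadherin gene Cdh1 at or under 0.148 FPKM. Wnt1, whose regulatory sequences drive the Cre, was at 0 FPKM in all 4 libraries.

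A gene was called expressed where its FPKM averaged 1 or more in the 4 libraries, which 17 of the 37 members and 47.6% of all symbols reached. By family these were 4 Wnt ligands, 7 Frizzled genes, 2 R-spondins, both Ror genes and both Lrp genes. FPKM is per transcript length, so levels were set side by side between genes, but other influences on FPKM that differ between genes were not tested. Just inside the limit were Wnt2b, Wnt9a and Fzd8, with means of 1.09, 1.13 and 1.14 FPKM, and just outside it were Rspo2, Fzd6 and Wnt5b, with means of 0.973, 0.829 and 0.727 FPKM.

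One ligand gave most of the Wnt ligand FPKM. Wnt5a (chromosome 14, 29318659 to 29338620, mm9), known as the main ligand of Ror receptors, had 24.7 and 20.3 FPKM in the mutant lower and upper molar and 21.1 and 18.8 FPKM in the control lower and upper molar. That was between 74.1% and 81.9% of the summed FPKM of the 19 ligands in a library. No other ligand exceeded 2.60 FPKM in any library. Wnt2, a ligand of the beta-catenin branch, had 1.66 and 2.35 FPKM in the mutant lower and upper molar and 0.896 and 2.60 FPKM in the control lower and upper molar, which rests on about 25 to 74 reads a library. Wnt2b, its paralog, had 0.920 and 1.09 FPKM in the mutant lower and upper molar and 1.20 and 1.16 FPKM in the control lower and upper molar. Wnt9a, a ligand known from joint formation, had 1.14 and 0.925 FPKM in the mutant lower and upper molar and 0.994 and 1.45 FPKM in the control lower and upper molar. The values of Wnt2, Wnt2b and Wnt9a overlapped between libraries, so their order in level is not beyond the spread, while Wnt5a stood above all 3 in every library.

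The other 15 ligands were not expressed by this rule. Wnt5b lay between 0.676 and 0.818 FPKM. Wnt16 had 0.734 and 0.392 FPKM in the mutant lower and upper molar, on about 17 and 10 reads, and 0.0495 and 0.0979 FPKM in the control lower and upper molar, on about 1 and 2 reads. Wnt11 reached 0.391 FPKM in the mutant lower molar, on about 15 reads. Wnt4, Wnt6, Wnt7b, Wnt10a and Wnt10b, ligands known from epithelia, stayed at or under 0.159 FPKM, and Wnt3, Wnt3a and Wnt7a at or under 0.115 FPKM. Wnt1, Wnt8a, Wnt8b and Wnt9b were at 0 in all libraries, where a limit of 3 reads corresponds to between 0.0447 and 0.151 FPKM, depending on gene length and library. Of the ligand genes, 4 pairs lie within 100 kb of each other in the genome. In the pair on chromosome 11 that lies 16.2 kb apart, Wnt9a reached 1.45 FPKM and Wnt3a 0.115 FPKM, and in the other 3 pairs (Wnt1 with Wnt10b, Wnt3 with Wnt9b, Wnt6 with Wnt10a) no gene exceeded 0.148 FPKM.

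**Figure D1:**
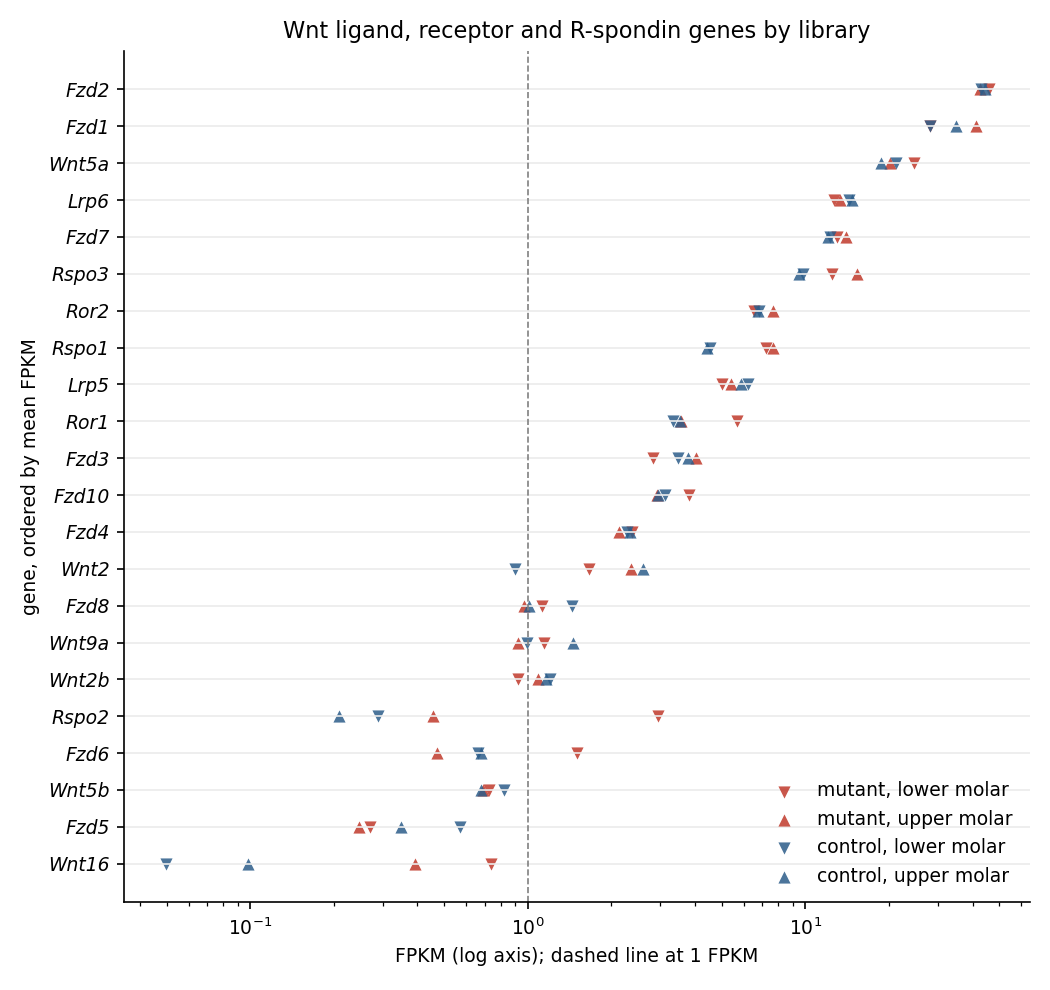
FPKM of the 22 members whose FPKM averaged 0.3 or more, on a log axis, with 1 symbol for each library (red for mutant, blue for control, pointing down for the lower molar and up for the upper molar). Fzd2, Fzd1 and Wnt5a lie highest, and Rspo2 shows the mutant lower molar apart from the other libraries, at 2.94 FPKM.

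Frizzled expression was carried by Fzd2 and Fzd1, which together made up between 74.7% and 77.3% of the summed FPKM of the 10 receptor genes. Fzd2 had 45.7 and 42.7 FPKM in the mutant lower and upper molar and 42.8 and 44.3 FPKM in the control lower and upper molar, the narrowest relative range of the 17 expressed members (highest over lowest value 1.07). Fzd1 had 28.1 and 41.2 FPKM in the mutants and 28.2 and 34.7 FPKM in the controls, and lay below Fzd2 in each library. Fzd7 followed at 13.0 and 14.0 FPKM in the mutants and 12.2 and 12.02 FPKM in the controls. These 3 receptors did not overlap in level.

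The remaining expressed Frizzled genes did not exceed 4.05 FPKM. Fzd3, known for its part in axon guidance and planar cell polarity, had 2.82 and 4.05 FPKM in the mutant lower and upper molar and 3.49 and 3.79 FPKM in the control lower and upper molar. Fzd10 had 3.80 and 2.92 FPKM in the mutants and 3.13 and 2.96 FPKM in the controls, so that it and Fzd3 overlapped. Fzd4, a receptor best known from retinal vessels, had 2.37 and 2.13 FPKM in the mutants and 2.27 and 2.33 FPKM in the controls. Fzd8 was at 1.13 and 0.968 FPKM in the mutants and 1.44 and 1.01 FPKM in the controls. Fzd6 exceeded 1 FPKM in the mutant lower molar alone, at 1.51 FPKM, with 0.472 FPKM in the mutant upper molar, 0.660 FPKM in the control lower molar and 0.676 FPKM in the control upper molar. Fzd5 stayed at or under 0.568 FPKM and Fzd9 at or under 0.0845 FPKM.

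The co-receptors were present throughout. Lrp6 had 12.7 and 13.4 FPKM in the mutant lower and upper molar and 14.3 and 14.7 FPKM in the control lower and upper molar. Lrp5 had 5.02 and 5.41 FPKM in the mutants and 6.24 and 5.86 FPKM in the controls, below Lrp6 in every library. Each lay slightly lower in the 2 mutants than in the 2 controls.

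The receptor tyrosine kinase-like genes Ror2 and Ror1 were both expressed. Ror2 had 6.51 and 7.63 FPKM in the mutant lower and upper molar and 6.80 and 6.73 FPKM in the control lower and upper molar. Ror1 had 5.66 FPKM in the mutant lower molar and 3.57 FPKM in the mutant upper molar, against 3.33 and 3.55 FPKM in the control lower and upper molar. The mutant lower molar thus stood apart for Ror1, with the other 3 libraries between 3.33 and 3.57 FPKM, and Ror2 lay above Ror1 in each library.

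Upstream sequence is shown for Rspo1, Fzd1 and Wnt2, which are discussed next. Of the 37 members, 25 were found in the RefSeq promoter table. Among the expressed ones of these 25, the genes shown had the smallest unadjusted p-values in the main limma test below. For Rspo1 this was the p-value for genotype, and for Fzd1 and Wnt2 that between molars. The sequences are the 250 bases before the RefSeq start on GRCm38.p6, another build than that of the deposited tables, 5′ to 3′ on the gene's strand, at chr4:124986180-124986429 (plus strand), chr5:4758217-4758466 (minus strand) and chr6:18030446-18030695 (minus strand). The motifs searched on both strands were CTTTGA (the core bound by TCF/LEF factors), GGCGCC (a GC-rich element known from BMP-responsive genes) and TAATTG (the core bound by Msx-type homeodomains), and matches are in capitals.
Rspo1: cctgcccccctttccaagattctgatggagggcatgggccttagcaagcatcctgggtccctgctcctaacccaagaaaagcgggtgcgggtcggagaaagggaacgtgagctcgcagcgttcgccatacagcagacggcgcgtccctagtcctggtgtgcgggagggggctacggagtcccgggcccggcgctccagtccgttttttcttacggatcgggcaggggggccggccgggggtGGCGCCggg
Fzd1: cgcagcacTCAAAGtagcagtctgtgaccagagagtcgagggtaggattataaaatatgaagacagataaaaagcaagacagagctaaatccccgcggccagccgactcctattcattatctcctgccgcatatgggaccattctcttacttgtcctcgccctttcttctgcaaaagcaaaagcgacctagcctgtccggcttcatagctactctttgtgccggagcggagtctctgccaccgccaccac
Wnt2: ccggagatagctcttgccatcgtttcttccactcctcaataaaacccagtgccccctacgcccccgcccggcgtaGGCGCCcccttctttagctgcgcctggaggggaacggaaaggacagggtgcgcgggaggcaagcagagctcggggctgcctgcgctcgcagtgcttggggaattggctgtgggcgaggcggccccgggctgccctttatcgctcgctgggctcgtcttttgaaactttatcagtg
Rspo1 held 1 GGCGCC, beginning 9 bases before the start, Wnt2 held 1 GGCGCC, beginning 175 bases before the start, and Fzd1 held 1 CTTTGA on the reverse strand, beginning 242 bases before the start. The RefSeq start used for Fzd1 lies outside the GENCODE M21 transcript, which begins downstream of it, so the distance given for Fzd1 depends on the annotation. Of the 32851 windows of the same length in the table, 13.8% held CTTTGA, 9.59% GGCGCC and 7.17% TAATTG. The matches do not overlap, and they describe letters, not binding.

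Rspo1 and Rspo3 had the highest estimates for genotype of the 17 expressed members, and neither was called. Rspo1 (chromosome 4, 124663674 to 124686343, mm9) had 7.23 and 7.67 FPKM in the mutant lower and upper molar, against 4.55 and 4.42 FPKM in the control lower and upper molar, on about 106 to 209 reads a library. The 2 mutants and the 2 controls did not overlap, and the mutant value was 1.59 times the control value in the lower and 1.73 times in the upper molar. Rspo3 (chromosome 10, 29172913 to 29255673) had 12.5 and 15.3 FPKM in the mutant lower and upper molar, against 9.78 and 9.44 FPKM in the control lower and upper molar. These groups did not overlap either, and the ratio was 1.27 in the lower and 1.62 in the upper molar. In bulk tissue such as this, a shift in the share of cells that make an RNA and a shift in RNA per cell cannot be told apart.

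Rspo2 (chromosome 15, 42852341 to 43002364), an R-spondin known for roles in limb and craniofacial growth, was high in a single library. It had 2.94 FPKM in the mutant lower molar, on about 138 reads, and 0.455 FPKM in the mutant upper molar, on about 23 reads. The control lower and upper molar had 0.289 and 0.209 FPKM, on about 13 and 9 reads. The mutant lower molar was 10.2 times the control lower molar and 6.46 times the mutant upper molar, with no replicate library behind either ratio. Rspo4 stayed at or under 0.168 FPKM and was at 0 in the mutant lower molar. Summed over the 4 genes, R-spondin FPKM was 22.6 and 23.5 in the mutant lower and upper molar and 14.8 and 14.1 in the control lower and upper molar.

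**Figure D2:**
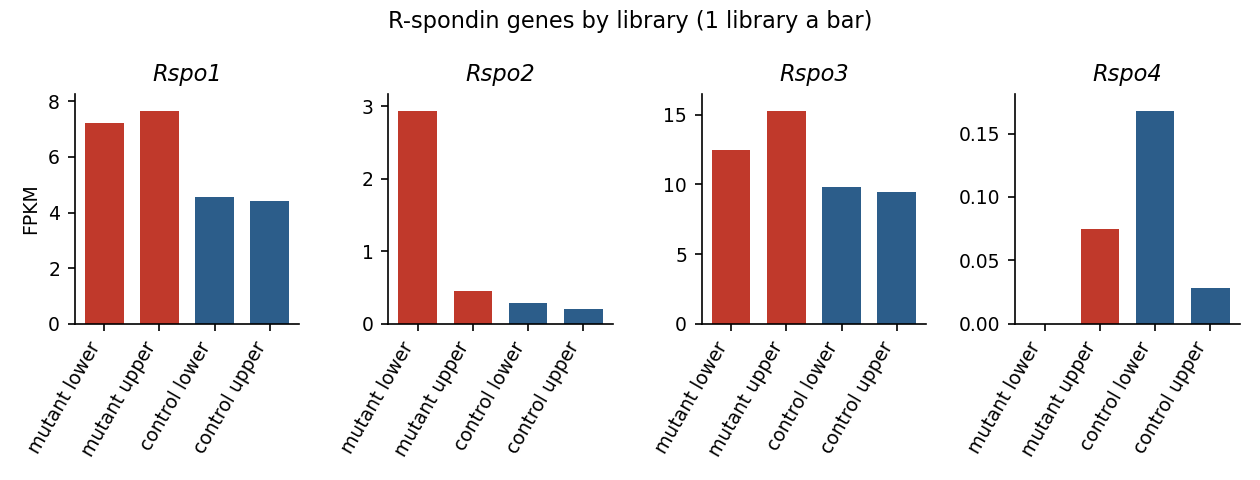
FPKM of the 4 R-spondin genes, with 1 bar for each library (mutants red, controls blue) and a separate axis for each gene, starting at 0. Rspo1 and Rspo3 are higher in both mutants than in both controls, Rspo2 is high in the mutant lower molar at 2.94 FPKM, and Rspo4 does not exceed 0.168 FPKM.

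Whether the loss of Bmp4 went with a difference in these genes was tested with limma on log2(FPKM + 1), fitted over all 10502 expressed genes, with genotype and molar as terms and Benjamini-Hochberg adjustment over all of them. Each genotype has 2 libraries, 1 from each molar, so the p-values do not measure a spread between embryos. They set a difference against a gene's own disagreement between molars (1 degree of freedom), pooled with that of all genes tested (5.77 added). Most of that spread thus comes from the other genes. Lower and upper molars of 1 genotype may share embryos, on which the labels are silent, so its 2 libraries may not be independent samples. The log scale with its pseudocount of 1 understates the change of weakly expressed genes. limma called 0 of the 17 expressed members at an adjusted p under 0.05, with 2 at an unadjusted p under 0.05, both higher in the mutant. Over all genes tested it called 0.800%, of which 0.343% were higher and 0.457% lower in the mutant, and 13.2% had an unadjusted p under 0.05, against 11.8% of the members. Rspo1 was higher in the mutant by 0.62 ± 0.11 (log2, SE, limma adjusted p = 0.076, higher in 2 of 2 molars). Rspo3 was higher by 0.48 ± 0.12 (log2, SE, limma adjusted p = 0.18, higher in 2 of 2 molars). When genes had to average 5 FPKM or more, limma called both, among 146 called of all 5307 genes tested. The limma adjusted p was then 0.021 for Rspo1 and 0.048 for Rspo3. Rspo1 met that filter only through its mutant libraries, with 4.55 and 4.42 FPKM in the control lower and upper molar. Without transcripts under 0.3 kb limma called Rspo1 at an adjusted p of 0.040, among 133 called of all 10414 genes. The other alternatives did not call either gene: the limma adjusted p of Rspo1 was 0.60 with no filter, 0.32 with the highest transcript alone and 0.25 with no term for the molar, and for both genes it reached 0.97 when the control upper molar was left out.

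The median difference between mutant and control was 0.05 on the log2 scale over the 17 members, beside -0.02 over all genes tested, with 10 members positive and 7 negative. In 7 members the 2 mutant libraries did not overlap the 2 control libraries, which is 41.2% of them, against 41.5% of all genes tested. The 4 that lay higher in the mutants were Rspo1, Rspo3, Ror1 and Fzd7, a direction that 18.4% of all genes tested took, and the 3 that lay lower were Wnt2b, Lrp5 and Lrp6, beside 23.1%. Ror1 was barely separated, with 3.57 FPKM in the mutant upper molar against 3.55 FPKM in the control upper molar. For the co-receptors the limma estimate was -0.18 ± 0.11 for Lrp5 and -0.15 ± 0.11 for Lrp6 (log2, SE, limma adjusted p = 0.55 and 0.60). Wnt5a was at 0.16 ± 0.11 and Fzd2 at 0.02 ± 0.11 (log2, SE, limma adjusted p = 0.58 and 0.96).

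Within a molar there is 1 library for each genotype and no test. On the log2(FPKM + 1) scale none of the 17 expressed members differed 2-fold between genotypes in the lower molar, where 1.10% of all genes tested did, nor in the upper molar, where 1.01% did. In the lower molar the differences ran from -0.27 for Lrp5 to 0.62 for Ror1, and in the upper molar from -0.35 for Wnt9a to 0.68 for Rspo1 (log2(FPKM + 1), mutant minus control). Ror1 differed by 0.62 in the lower and by 0.01 in the upper molar, and over both by 0.31 ± 0.16 (log2, SE, limma adjusted p = 0.48). Rspo2, below the limit of the main test, differed by 1.61 in the lower and 0.27 in the upper molar. Where at least 1 FPKM in any library was enough, it entered through the mutant lower molar alone. It was not called there (0.94 ± 0.34, log2, SE, limma adjusted p = 0.33).

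**Figure D3:**
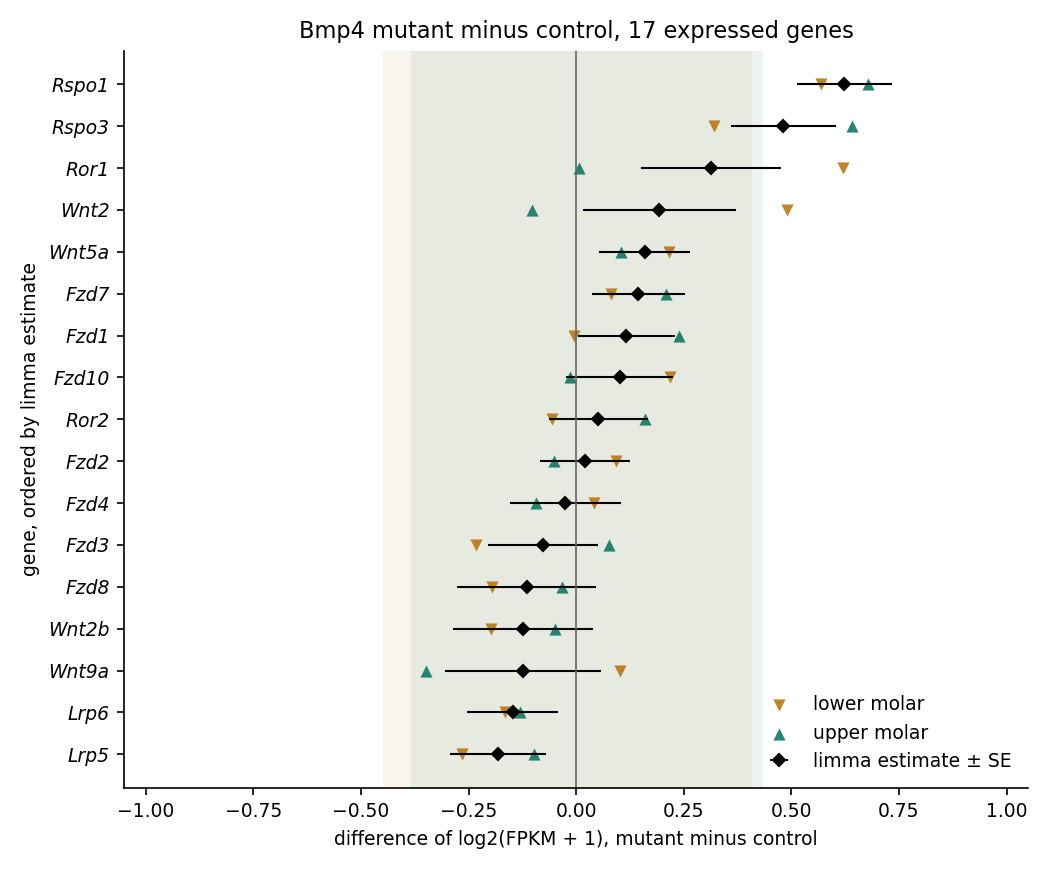
Difference of log2(FPKM + 1), mutant minus control, for the 17 expressed members in the lower molar (triangles pointing down) and the upper molar (triangles pointing up), with the limma estimate over both molars (diamonds, bars are SE). Shading spans the middle 90% of all 10502 genes tested in each molar, and Rspo1 lies beyond it in both molars, at 0.57 and 0.68.

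Markers of other cell types were read beside these differences. Bone and cartilage markers, 8 genes, summed to 46.5 and 47.7 FPKM in the mutant lower and upper molar and to 69.3 and 80.0 FPKM in the control lower and upper molar. Most of each sum was a single gene, Runx2, and 4 of the 8 genes were under 1 FPKM in every library. Runx2 had 31.0 and 39.5 FPKM in the mutant lower and upper molar and 48.2 and 62.2 FPKM in the control lower and upper molar. Endothelial markers, 11 genes, summed to 43.6 and 36.7 FPKM in the mutants and 47.2 and 52.2 FPKM in the controls. Nerve and glia markers, 10 genes of which 1 was expressed, summed to 7.17 and 8.71 FPKM in the mutants and 4.93 and 3.12 FPKM in the controls, most of the mutant sum being the neurofilament gene Nefl. Muscle markers, 7 genes, summed to between 1.58 and 2.05 FPKM, with 1.85 FPKM in the mutant lower molar where Rspo2 was high. Epithelial markers summed to 27.4 and 27.9 FPKM in the mutants and to 26.4 and 25.1 FPKM in the controls, and blood markers, 11 genes, to between 919 and 1091 FPKM. The part of these lists in the R-spondin values was not tested.

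The second comparison set lower against upper molar. limma called 0 of the 17 expressed members, with 2 at an unadjusted p under 0.05, both lower in the lower molar. It called 0.724% of all genes tested, with 0.390% higher and 0.333% lower in the lower molar, and 10.2% of those had an unadjusted p under 0.05, against 11.8% of the members. The median over the members was -0.04, the same to 2 decimals as over all genes tested (log2, lower minus upper molar).

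Wnt2 (chromosome 6, 17938940 to 17980445) and Fzd1 (chromosome 5, 4753839 to 4758216) were these genes. Wnt2 had 1.66 FPKM in the lower and 2.35 FPKM in the upper molar of mutants, and 0.896 FPKM in the lower and 2.60 FPKM in the upper molar of controls. The lower molar value was 0.706 times the upper in mutants and 0.344 times in controls, and the limma estimate was -0.63 ± 0.18 (log2, SE, limma adjusted p = 0.27, lower in 2 of 2 genotypes). Fzd1 had 28.1 FPKM in the lower and 41.2 FPKM in the upper molar of mutants, against 28.2 and 34.7 FPKM in controls, with an estimate of -0.41 ± 0.11 (log2, SE, limma adjusted p = 0.26, lower in 2 of 2 genotypes). Lower and upper molars did not overlap for either gene.

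Such separation held for 6 of the 17 members, or 35.3%, against 33.4% of all genes tested. The 3 that lay higher in both lower molars were Wnt5a, Fzd8 and Fzd10, beside 12.2% of all genes tested, and the 3 that lay lower were Wnt2, Fzd1 and Fzd3, beside 21.2%. Wnt5a was at 0.22 ± 0.11 and Fzd3 at -0.25 ± 0.13 (log2, SE, limma adjusted p = 0.56 and 0.59). Rspo1 and Rspo3, the expressed members that stood highest for genotype, were at -0.02 ± 0.11 and -0.11 ± 0.12 (log2, SE, limma adjusted p = 0.98 and 0.84). Rspo1 took opposite signs in the 2 genotypes, at -0.07 in mutants and 0.03 in controls, and its estimate was 0.02 after libraries were rescaled by median ratios. Within a genotype, none of the 17 differed 2-fold between molars on the log2(FPKM + 1) scale, where 1.28% of all genes tested did in mutants and 0.971% in controls. The widest were Ror1 in mutants, at 0.54, and Wnt2 in controls, at -0.93 (log2(FPKM + 1), lower minus upper molar).

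**Figure D4:**
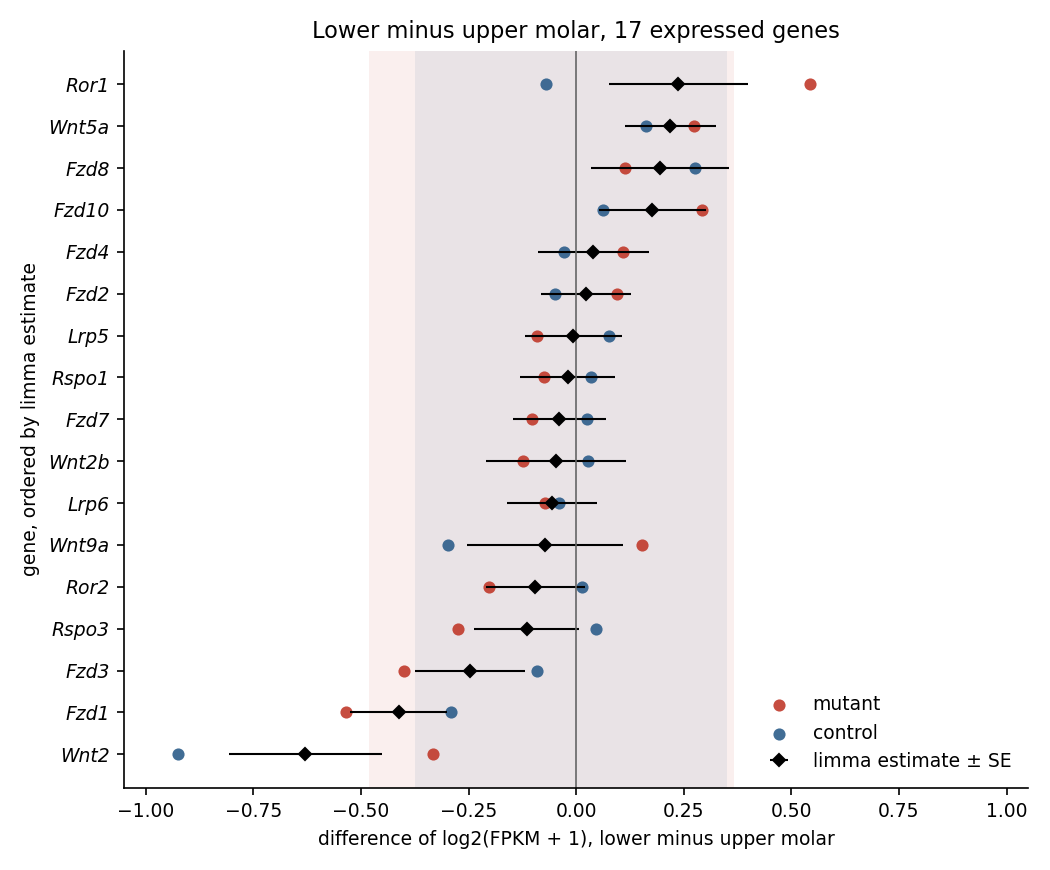
Difference of log2(FPKM + 1), lower minus upper molar, for the 17 expressed members in mutants (red) and controls (blue), with the limma estimate over both genotypes (diamonds, bars are SE). Shading spans the middle 90% of all 10502 genes tested in each genotype. Wnt2 lies lowest, at -0.33 in mutants and -0.93 in controls, and Fzd1 at -0.53 and -0.29.

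Other genes of the pathway were counted by list, with the same fit. Among R-spondin receptors and genes of receptor turnover, limma called 0 of 4 tested genes higher and 1 lower in the mutant. This was Lgr6, an R-spondin receptor, at 0.865 and 1.62 FPKM in the mutant lower and upper molar and 2.33 and 5.45 FPKM in the control lower and upper molar (-1.07 ± 0.16, log2, SE, limma adjusted p = 0.043). Its relatives did not pass, with Lgr4 at -0.50 ± 0.13 and Lgr5 at 0.31 ± 0.12 (log2, SE, limma adjusted p = 0.19 and 0.35). The list's median was -0.36, beside -0.02 over all genes tested. Secreted antagonists had 1 of 7 called higher in the mutant, Sfrp2 (0.84 ± 0.11, log2, SE, limma adjusted p = 0.033), and 1 called lower, Sostdc1 (-0.78 ± 0.11, log2, SE, limma adjusted p = 0.040). Of transducers, 0 of 17 were called higher and 1 lower, the transcription factor gene Tcf7 (-0.93 ± 0.11, log2, SE, limma adjusted p = 0.028), which is also the 1 called of 11 readout genes. After rescaling by median ratios none of these 4 was called (limma adjusted p between 0.059 and 0.10), nor was any of them in the fit without an intensity trend.

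The remaining lists gave 0 calls for genotype by limma. These were 8 genes of Wnt release and extracellular handling, 8 other receptors and co-receptors and 12 planar cell polarity partners, with 1, 3 and 1 genes at an unadjusted p under 0.05, beside 13.2% of all genes tested. In the lists with a call, 3 of 4 genes of R-spondin reception and receptor turnover, 5 of 7 antagonists, 2 of 17 transducers and 5 of 11 readout genes were under that p, and calls over all genes tested came to 0.800%. These counts are not independent, because lists share genes. Tcf7, Lef1, Lgr5 and Apcdd1, all under that p, are each both a readout gene and a member of another list. Wls, which carries Wnt proteins to the cell surface, had 9.55 and 11.9 FPKM in the mutant lower and upper molar and 9.12 and 10.5 FPKM in the control lower and upper molar. Apcdd1, a membrane inhibitor of Wnt signalling, was at 0.46 ± 0.11, Lrp4, a relative of Lrp5 and Lrp6, at -0.33 ± 0.13 and Daam2, a formin of the polarity branch, at -0.39 ± 0.11 for genotype (log2, SE, limma adjusted p = 0.16, 0.35 and 0.21). Between molars limma called 0.724% of all genes tested, with 0.390% higher in the lower molar. Of 7 secreted antagonists it called 3 higher in the lower molar. These were Dkk2 at 1.79 ± 0.12, Wif1 at 1.18 ± 0.13 and Sfrp1 at 0.99 ± 0.10 (log2, SE, limma adjusted p = 0.0035, 0.014 and 0.014). It called 0 genes of the other lists. In those lists an unadjusted limma p under 0.05 was found for 3 of 8 genes of Wnt release and 2 of 4 of R-spondin reception. It was found for 1 of 8 other receptors, 2 of 17 transducers, 6 of 11 readout genes and 2 of 12 polarity partners, beside 10.2% of all genes tested. The 7 list calls for genotype and between molars were absent with no filter, with no term for the other factor and with the highest transcript alone. In the fits that left out 1 of the 4 libraries, none of these 7 list calls was made.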

How the data were processed

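Per the labels' protocols, laser-captured mesenchyme gave total RNA (RNeasy Micro), which was turned into cDNA with NuGEN's Ovation system and into libraries with Illumina's Nextera chemistry. The submitters' processing notes name TopHat 1.4.1, Bowtie 0.12.7 and the mouse build mm9. FPKM for each of 28107 RefSeq transcripts was normalised to mapped reads by the authors and laid out as Cufflinks writes it, per the file headers. The deposited coverage per transcript is proportional to FPKM within a library. The sources used here give neither the version of Cufflinks nor how strand and multiply aligned reads were treated.

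Here FPKM was summed per gene symbol. 34 of the 37 members had 1 transcript, and every member's estimate had the status OK in each library, while 19 to 55 transcripts a library had failed estimates. Approximate reads are coverage times length over 44.2 bases, the median of transcripts read about once, and cover counting error only. The main test was limma 3.58.1 in R 4.3.3 on log2(FPKM + 1) with additive terms for genotype and molar, an intensity trend and two-sided Benjamini-Hochberg adjustment at 0.05. Its residual has 1 degree of freedom and the prior added 5.77. The fit was tested on simulated data. Alternatives changed the pseudocount, the filter, the scaling, the trend, the terms, the transcripts summed and the libraries used. Expressed members were all named, and a list gene could be named where it was called or among its list's 3 largest estimates for genotype. Members and lists were chosen with earlier results of these data known. The lists had 9 of 10 genes of Wnt release matched and all genes of the other 6 lists. mm9 coordinates are counted from 1.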

Additional observations from a re-analysis of the deposited data

Results flagged for a closer look

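Of the 17 expressed members, Wnt2 and Wnt9a had differences of opposite sign, each of at least 0.1 on the log2(FPKM + 1) scale, under the same contrast. For genotype, mutant minus control, Wnt2 was at 0.49 in the lower molar and at -0.10 in the upper molar. Wnt9a was at 0.10 in the lower and at -0.35 in the upper molar. Between molars, Wnt9a was at 0.15 in mutants and at -0.30 in controls, lower minus upper molar. These rest on about 25 to 74 reads a library for Wnt2 and 43 to 63 for Wnt9a, with 1 library a group, and the difference between the contrasts was not tested.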

How the results depend on the processing

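The count of members that limma called higher in the mutant was 0 in the main analysis, 2 of the 9 members that averaged 5 FPKM or more (Rspo1 and Rspo3), and 1 of 17 without transcripts under 0.3 kb (Rspo1). Rspo1 reached the mean of 5 FPKM only through its mutant libraries, with 4.55 and 4.42 FPKM in the control lower and upper molar. The cause of these differences in count was not tested. The count was 0 under the other alternatives, and counts lower in the mutant, and in either direction between molars, were 0 under every alternative run. Over all genes, limma called between 0 and 146 for genotype and between 0 and 139 for molar, against 84 and 76 in the main analysis. With a pseudocount of 0.1, 1 member (Wnt2) differed 2-fold between molars in controls, against 0 with 1. Rspo1 and Rspo3 stayed higher in the mutant in all 12 alternatives fixed at the start and in the 1 added after the data were seen (at least 1 FPKM in any library), from 0.59 to 0.72 and from 0.34 to 0.62 (log2). This sign was largely fixed in advance and is no separate support. Changes of filter, trend, terms or transcripts left the estimates at 0.62 and 0.48. Both mutants exceeded both controls, so leaving out 1 library could not turn the sign. After rescaling by median ratios the molar estimates of Fzd7, Rspo1 and Lrp5 became positive, at 0.0012, 0.019 and 0.030. Leaving out 1 library at a time, a fit with only the compared factor, turned the sign of estimates that were not called. For genotype these ran for Wnt2 from -0.27 to 0.66, Wnt9a from -0.27 to 0.026, Fzd1 from -0.15 to 0.38, Fzd2 from -0.026 to 0.068, Fzd3 from -0.28 to 0.12, Fzd4 from -0.079 to 0.029, Fzd8 from -0.25 to 0.024, Fzd10 from -0.045 to 0.25 and Ror2 from -0.049 to 0.15. For molar they ran for Wnt2b from -0.15 to 0.052, Wnt9a from -0.25 to 0.10, Fzd2 from -0.023 to 0.069, Fzd4 from -0.0060 to 0.086, Fzd7 from -0.14 to 0.065, Rspo1 from -0.36 to 0.32, Rspo3 from -0.44 to 0.21, Ror1 from -0.072 to 0.55, Lrp5 from -0.14 to 0.13 and Lrp6 from -0.14 to 0.026. Depth limits the 20 members that were not expressed, of which Wnt5b, Fzd5, Fzd6 and Rspo2 had more than 17 approximate reads in a library and the others did not. The labels give no replicate numbers to pair libraries by, and the term for the molar already sets mutant against control within each molar.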

Other observations

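The 17 expressed members did not have their extremes in a single library. The mutant lower molar held the highest value of 5 (Wnt5a, Fzd2, Fzd4, Fzd10 and Ror1) and the lowest of 6, the mutant upper molar the highest of 6 (Fzd1, Fzd3, Fzd7, Rspo1, Rspo3 and Ror2) and the lowest of 5, the control lower molar the highest of 3 and the lowest of 2, and the control upper molar the highest of 3 and the lowest of 4. Over all genes tested, the mutant lower molar held the highest value of 19.3% and the lowest of 38.5%, the mutant upper molar of 30.9% and 17.7%, the control lower molar of 23.3% and 20.9%, and the control upper molar of 26.5% and 23.0%.

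Rspo2, Fzd6 and Wnt16, which averaged under 1 FPKM, each had their highest value in the mutant lower molar, at 2.94, 1.51 and 0.734 FPKM. They were singled out after their values were seen.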
